A study of Mus musculus with 6 samples.

Results

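A set of 10 marker genes of adventitial fibroblasts were followed in cultured mouse aortic smooth muscle cells: Dpt, Pi16, Ly6a, Cd34, Clec3b, Scara5, Serpinf1, Dpep1, Fbln1 and Gsn. They were taken by gene symbol from the deposited expression table, where all 10 are present, each in a single row, among 27179 genes. The table covers 6 RNA-seq libraries of primary vascular smooth muscle cells isolated from the aorta, 3 labelled WT and 3 labelled Bmal1 KO, a deletion of the circadian transcription factor BMAL1. Every culture had spent 7 days in the medium called diabetic, which held glucose at 4.5 g/L and hydrogen peroxide at 0.3 mM, so no culture in ordinary medium enters the comparison. The sources used here do not give the strain, age or sex of the mice, the cells in which the deletion was made, or whether replicates are separate animals or cultures. P-values therefore measure the spread between these libraries, which may be technical.

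The adventitia is the outer coat of an artery, and its fibroblasts make collagen-rich matrix and hold progenitor-like cells. In single-cell surveys of the artery wall these cells are recognised by surface proteins such as SCA-1 (Ly6a), CD34 and PI16 and by secreted matrix proteins such as dermatopontin (Dpt). None of the 10 genes is exclusive to fibroblasts: Cd34 and Ly6a are also used for endothelial and blood progenitor cells, and Gsn is expressed in muscle. In bulk RNA, fewer cells of a type and less RNA per cell cannot be told apart.

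Values are normalized read counts (reads divided by a library's size factor), and ± is the SD over 3 libraries. Gene positions are in GRCm38. The libraries held 32503525 to 44657471 reads in genes. The targeted gene, listed as Arntl, was at 529, 619 and 590.3 in WT and at 1036, 941 and 1036 in the libraries labelled Bmal1 KO, so its gene-level count was higher under the knockout label. Such counts do not show whether a deleted exon is missing. Xist, the RNA of the inactive X chromosome, was at 12.4 to 89.9 in WT and at 3842 to 3887 in the libraries labelled Bmal1 KO, so the label also separated libraries by a sex-linked transcript, and the part of sex in the values that follow cannot be told apart from that of genotype. Smooth muscle markers were present in all libraries: Acta2 was at 20688 ± 1364 in WT and 62931 ± 1900.4 in the libraries labelled Bmal1 KO. Myh11, the smooth muscle myosin gene and the most specific marker of the contractile cell, was low in WT, at 24.8, 14.9 and 68.2, and reached 259, 272 and 291 in the others.

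All 10 fibroblast genes differed between the labels, but not in 1 direction. In the libraries labelled Bmal1 KO, 7 rose (Dpep1, Gsn, Ly6a, Scara5, Serpinf1, Dpt and Clec3b) and 3 fell (Fbln1, Cd34 and Pi16). The call was a Benjamini-Hochberg adjusted p under 0.05 in limma, fitted over 16086 genes. Of all genes tested, 71.1% passed, 36.2% higher and 34.9% lower, so a single call of a member says little by itself. Of the 10, 9 differed at least 2-fold in means and passed, against 33.6% of all genes tested. Groups did not overlap for any of the 10 genes, against 76.7% of all genes tested. The median size of the log2 difference, taken without sign, was 1.76 over the 10 genes and 0.63 over all genes tested. Most other cell type lists below had larger ones, from 1.87 (activated fibroblast genes) to 2.61 (macrophage genes). Adipocyte genes had a smaller one, 1.37. The signed median of the 10 genes was 1.18, against -0.012 for all genes. Log2 differences are Bmal1 KO minus WT of log2(value + 1), and folds are ratios of group means.

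**Figure D1:**
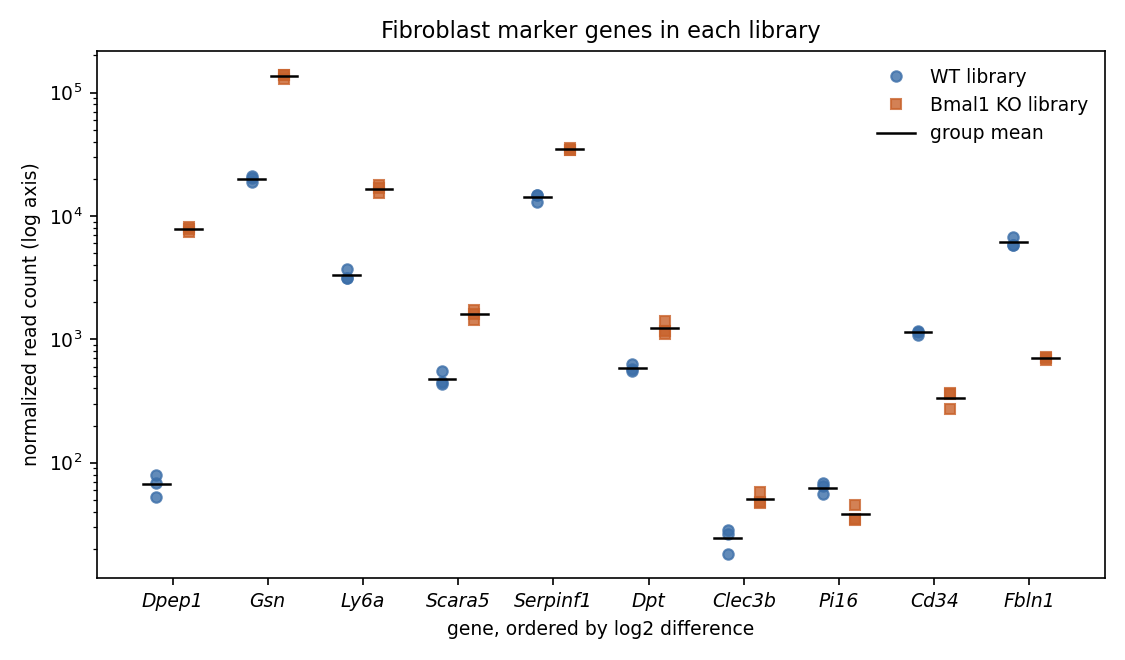
Normalized read count (log axis) of each fibroblast marker gene in every library, with circles for WT, squares for Bmal1 KO and a bar for each group mean, genes ordered by log2 difference. The groups are apart for all 10 genes, with Dpep1 furthest apart and Pi16 and Clec3b closest to the bottom of the scale.

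Among the surface markers of progenitor-like fibroblasts, Ly6a rose while Cd34 and Pi16 fell. Ly6a encodes SCA-1, a lipid-anchored protein of the cell membrane. Its normalized counts were 3735, 3138 and 3135 in WT and 17754, 16692 and 15438 in the libraries labelled Bmal1 KO. The lowest of the latter was 4.13 times the highest WT library. The rise was 4.98-fold (log2 difference 2.32, SE 0.090, limma adjusted p = 4.29e-07). Of the 50-base stretches in Ly6a transcripts, 19.0% also occur in transcripts of Ly6c1, Ly6c2, Ly6i or I830127L07Rik, so some of its reads are uncertain.

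Cd34 (chromosome 1, 194938819 to 194961279) encodes a sialomucin, a heavily glycosylated adhesion protein. It was at 1151, 1172 and 1093 in WT and at 271, 366 and 361 in the libraries labelled Bmal1 KO. WT libraries lay close together and replicate 1 of the Bmal1 KO label was lowest. The fall was 3.42-fold (log2 difference -1.79, SE 0.13, limma adjusted p = 1.09e-05). The antisense gene Gm16897 overlaps Cd34 and averaged 4.32 normalized counts in WT and 9.16 in Bmal1 KO. The strand setting of the counting is not known, so reads of the overlapping pair may not have been told apart. The same limit holds for Dpt and Pi16, which antisense genes (Gm32569 and AC162182.1) overlap in GENCODE.

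Pi16 (chromosome 17, 29317680 to 29330593) encodes peptidase inhibitor 16, a membrane-anchored member of the CAP domain family. It was at 64.2, 55.6 and 68.2 in WT and at 34.6, 34.8 and 45.7 in the libraries labelled Bmal1 KO, from 29 to 74 reads per library. The groups were apart by little, since the lowest WT library was 1.22 times the highest of the others. The fall was 1.63-fold (log2 difference -0.70, SE 0.23, limma adjusted p = 0.0240). The call was not kept in 5 of 15 alternatives. Leaving out WT replicate 1 gave a limma adjusted p of 0.0618, and leaving out WT replicate 3 gave 0.0759. Without replicate 1 under the Bmal1 KO label the limma adjusted p was 0.0638, and without replicate 2 it was 0.072. DESeq2 on recovered reads gave an adjusted p of 0.0587. Over all 15 alternatives its adjusted p ran from 0.0162 to 0.0759.

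The surface enzyme and receptor genes rose. Dpep1 encodes a membrane dipeptidase that cleaves leukotriene D4 and other dipeptides. It was at 53.2, 79.6 and 69.1 in WT and at 8152, 7827 and 7404 in the libraries labelled Bmal1 KO. The lowest of these was 93.0 times the highest WT library. The rise was 116-fold (log2 difference 6.85, SE 0.14, limma adjusted p = 2.31e-08), larger in size than that of 99.7% of the genes tested. The protein-coding gene Gm20388 overlaps Dpep1 on the same strand and has no row in the table used here, so reads of that pair could not be separated. The difference rested on 229 reads in WT against 21009 in the libraries labelled Bmal1 KO.

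Scara5 (chromosome 14, 65666403 to 65764826) encodes a class A scavenger receptor that takes up ferritin. Its normalized counts were 431, 556 and 451 in WT and 1615, 1740 and 1442 in the libraries labelled Bmal1 KO. Replicate 2 was the highest library of each label, and the groups were well apart. The rise was 3.33-fold (log2 difference 1.74, SE 0.12, limma adjusted p = 8.75e-06).

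The 2 matrix genes went opposite ways. Dpt (chromosome 1, 164796644 to 164824266) encodes dermatopontin, which binds decorin and helps collagen fibrils assemble. It was at 625, 557 and 575 in WT and at 1397, 1107 and 1178 in the libraries labelled Bmal1 KO, where replicate 1 was highest in each label. The rise was 2.09-fold (log2 difference 1.06, SE 0.11, limma adjusted p = 6.15e-05). Fbln1 (chromosome 15, 85205949 to 85286535) encodes fibulin-1, a glycoprotein of elastic fibres and fibronectin networks. It was at 5811, 6688 and 5810.5 in WT and fell to 711, 723 and 684. Even the lowest WT library was 8.04 times the highest of the others. The fall was 8.64-fold (log2 difference -3.11, SE 0.075, limma adjusted p = 4.35e-08), and 1.18% of the genes tested had a log2 difference at or below that of Fbln1.

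Both secreted regulators rose, from very different levels. Serpinf1 (chromosome 11, 75409769 to 75422701) encodes PEDF, a serpin without protease-inhibiting activity that restrains blood vessel growth. It was at 14865, 14722 and 12908 in WT and at 35507, 34370 and 34292 in the libraries labelled Bmal1 KO. The SD of the latter was 1.96% of their mean, the tightest spread in these 10 genes. The rise was 2.45-fold (log2 difference 1.30, SE 0.077, limma adjusted p = 4.16e-06). Clec3b (chromosome 9, 123150946 to 123157432) encodes tetranectin, a plasminogen-binding lectin. It was at 26.6, 18.2 and 28.6 in WT and at 46.9, 48.0 and 58.3 in the libraries labelled Bmal1 KO. These values come from 22 to 51 reads per library, and the WT spread was the widest of the set at 22.4% of the mean. The rise was 2.09-fold (log2 difference 1.05, SE 0.27, limma adjusted p = 0.00886).

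Gsn (chromosome 2, 35256380 to 35307892), the most abundant of the set by count, encodes gelsolin, which cuts and caps actin filaments inside the cell and also has a secreted form. Its normalized counts were 20262, 21157 and 18748 in WT and 137489, 139470.5 and 129724 in the libraries labelled Bmal1 KO. No library of 1 label came near those of the other, with a 6.13-fold gap between the nearest pair. The rise was 6.76-fold (log2 difference 2.76, SE 0.086, limma adjusted p = 1.52e-07). Gm43128, an unverified transcript in GENCODE, overlaps Gsn on the same strand and has no row either. Gsn alone made up 43.1% to 43.9% of the summed counts of the 10 genes in WT and 67.7% to 68.9% in the libraries labelled Bmal1 KO. The sum ran from 42886 to 48144 in WT and from 190626 to 202979 in the others, and without Gsn from 24138 to 26987 and from 60902 to 65489.

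Levels can be compared between genes only per length, so counts were divided by the length of the longest principal transcript in GENCODE. In WT, Serpinf1 (7732 ± 596 per kb) and Gsn (7693 ± 467 per kb) led and their libraries overlapped, so their order is not resolved. Ly6a (3493 ± 362 per kb) and Fbln1 (1668 ± 138 per kb) followed. Dpep1 (30.1 ± 5.95 per kb) and Clec3b (24.7 ± 5.52 per kb) overlapped near the bottom, above Pi16 (15.7 ± 1.61 per kb). Under the Bmal1 KO label Gsn stood first at 51999 ± 1976 per kb, Dpep1 moved from rank 8 to rank 4 at 3486 ± 168 per kb, and Fbln1 moved from rank 4 to rank 7 at 193 ± 5.43 per kb. No neighbours in that order overlapped. Pi16 was the lowest in both orders. The length used matters. In WT, Cd34 stood above Dpt at 464 ± 16.6 per kb against 339.8 ± 20.6. It stood below Dpt, at 156 per kb, when all annotated exons were counted, a choice made after seeing the data. Under the Bmal1 KO label that choice put Cd34, at 45.6 per kb, below Clec3b, at 51.4 per kb. There the libraries of Serpinf1 (14719 per kb) and Ly6a (13799 per kb) then overlapped.

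**Figure D2:**
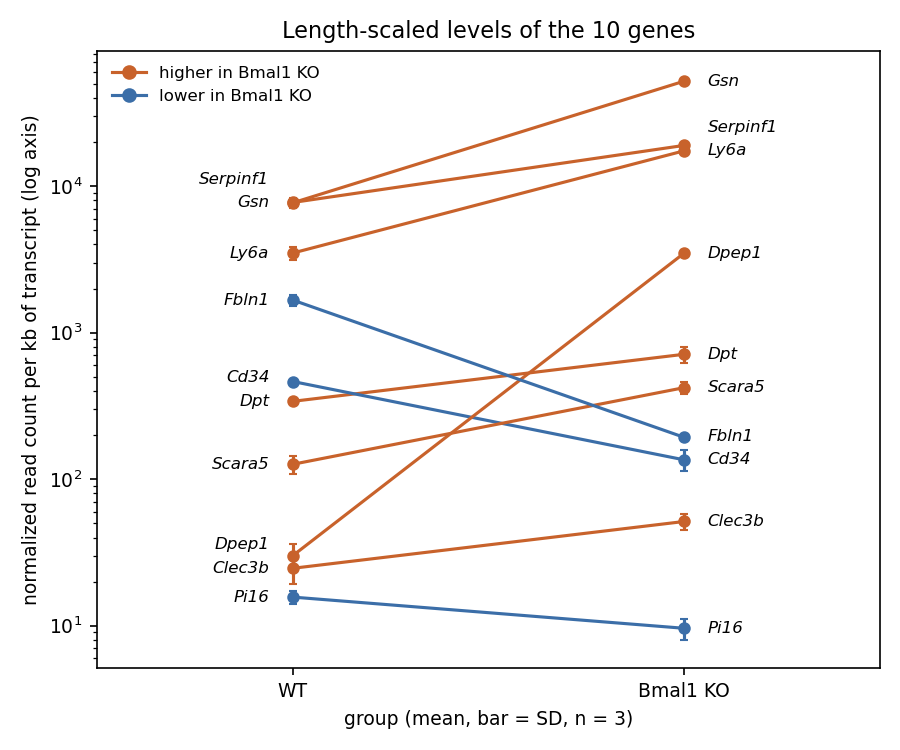
Mean normalized read count per kb of transcript (log axis) of each gene in WT and Bmal1 KO, with SD bars over 3 libraries. Orange lines are the 7 genes higher in Bmal1 KO and blue lines the 3 that were lower: Dpep1 crosses from rank 8 to rank 4, while Fbln1 drops from rank 4 to rank 7.

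Relatives of the 10 genes within their families went in both directions. Among fibulins, Fbln5, which takes part in elastic fibre assembly, fell 2.16-fold, from 3242 ± 284 to 1498 ± 16.3. Fbln2 rose 1.98-fold, from 87086 ± 12892 to 172833 ± 4505, and Fbln7 and Efemp1 rose 2.98-fold and 1.96-fold. Of the 7 fibulin relatives tested, 3 rose and 2 fell, where 36.2% of all genes tested were higher and 34.9% lower. Efemp2 was at 12779 ± 777 and 12507 ± 222 and did not pass (limma adjusted p = 0.704), and its direction turned under upper-quartile scaling. Among gelsolin family relatives of Gsn, Flii rose 2.04-fold, Svil 1.76-fold and Capg 1.21-fold, and Vill fell 2.73-fold. The other 3 of 7, Scin, Vil1 and Avil, did not pass (limma adjusted p = 0.120, 0.0651 and 0.802).

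The neighbouring gene Serpinf2, which encodes the plasmin inhibitor of blood, was at 10.9 ± 1.64 in WT and 5.86 ± 4.55 in the libraries labelled Bmal1 KO and did not pass (limma adjusted p = 0.161). Dpep2, the only other dipeptidase of the Dpep1 type with enough reads, was at 44.0, 36.5 and 18.4 in WT and at 26.5, 28.8 and 34.3 in the others (limma adjusted p = 0.886). The scavenger receptor relatives of Scara5 both fell, Scara3 1.545-fold and Colec12 1.37-fold. Podxl, a sialomucin of the Cd34 group, rose 1.94-fold and Podxl2 fell 1.61-fold. Emcn, of the same group, rose 5.59-fold from 7.91 ± 1.83 to 44.2 ± 10.8, a rise that the filter favoured. Clec11a, a lectin relative of Clec3b, fell 1.60-fold. In the CAP family of Pi16, 3 of 6 tested relatives rose and 3 fell. Glipr1 fell 1.74-fold, Glipr2 1.61-fold and R3hdml 3.05-fold, while Crispld2 rose 29.5-fold, from 167 ± 31.3 to 4938 ± 51.5. Crispld1 and Crisp1 also rose (log2 differences 6.23 and 4.02). WT libraries alone did not bring these past the filter, which favours a rise in them.

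Ly6a lies on chromosome 15 (74994877 to 74998031 in GRCm38) in a cluster of related genes. Its nearest tested protein-coding neighbours went opposite ways: Ly6c1, 45987 bases away, rose 1.84-fold from 977 ± 117 to 1798 ± 154, and Ly6e, 34972 bases away on the other side, fell 1.78-fold from 12303 ± 928 to 6898 ± 244. Of 12 Ly6-type genes tested beside Ly6a, 10 rose and 2 fell, where 36.2% of all genes tested were higher. A gene entered the test with a value of 10 in 3 libraries. WT libraries alone did not bring in Psca, Ly6k, Slurp1, Lypd6, Lypd6b or Ly6d, so the filter favoured a rise in them. Psca rose 471-fold, from 8.25, 18.2 and 6.45 in WT to 5518, 4953 and 5053. Dpep1 lies on chromosome 8 (123186242 to 123201812), and both its nearest tested neighbours rose: Sult5a1, 27927 bases to its left, 2.98-fold from 27.0 ± 9.69 to 80.4 ± 13.3, and Chmp1a, 2452 bases to its right, 1.18-fold from 5054 ± 459 to 5977 ± 181. Over the nearest tested neighbour on each side of the 10 genes, 20 in all, 18 passed, 11 in the direction of the member and 7 against it. Of all genes tested, 71.1% passed. The median size of the log2 difference was 0.615 over these neighbours and 0.63 over all genes tested.

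**Figure D3:**
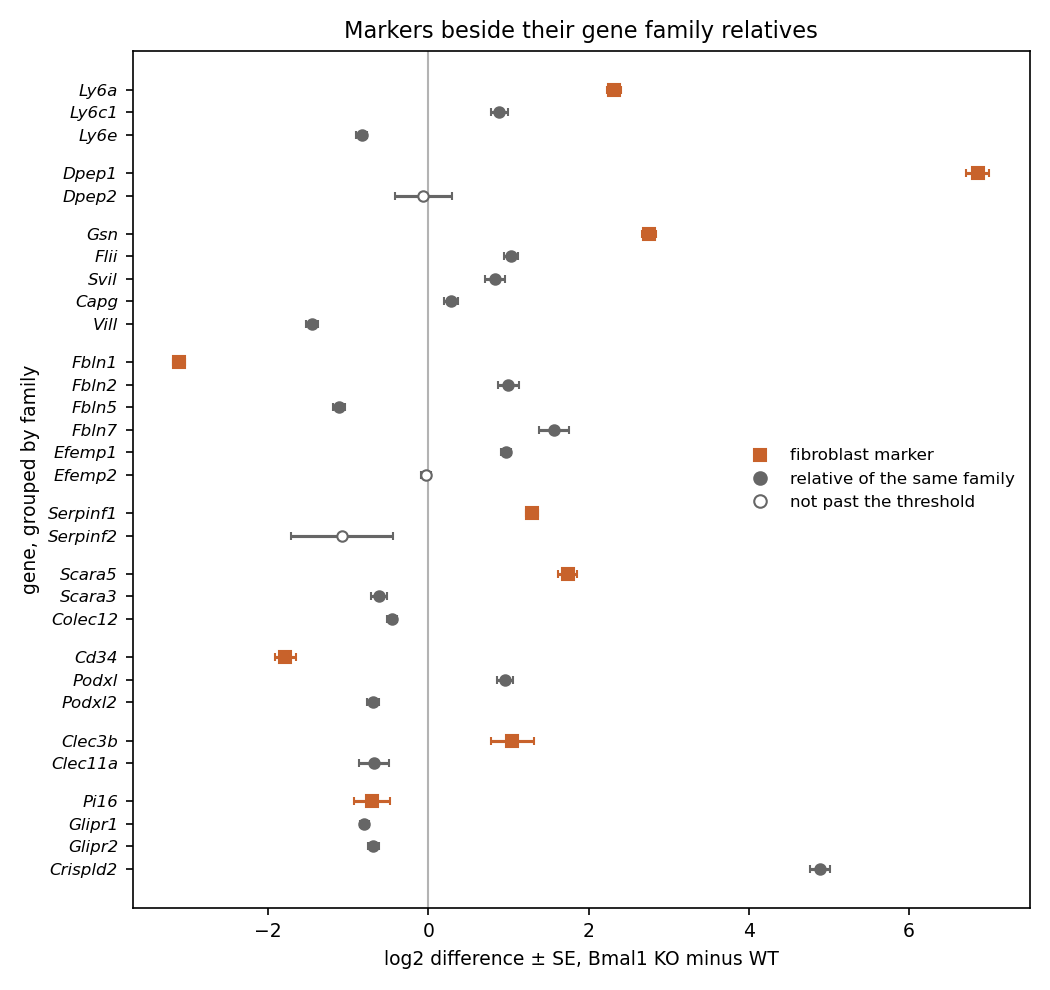
Log2 difference with its SE (Bmal1 KO minus WT) of the fibroblast markers except Dpt, drawn as squares. Selected relatives in the same gene family are drawn as circles, open where the gene did not pass the test. Not every tested relative is drawn, and Psca, at 8.88, is among those left out. Dpep1 at 6.85 stands far from Dpep2, and Fbln1 at -3.11 stands below each of the other fibulins drawn. The direction of Efemp2 turned under upper-quartile scaling and that of Dpep2 when single libraries were left out.

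The promoters of the members were searched for the E-box CACGTG, to which CLOCK and BMAL1 bind, for its variant CACGTT, which reads as AACGTG on the other strand, and for AGGTCA, which reads as TGACCT on the other strand and is the core that REV-ERB and ROR receptors recognise within a longer site. RefSeq windows of 300 bases, 250 before to 50 after a start, in GRCm38.p6 were found for 7 of the 10 genes, with 10 windows in all. Ly6a, Clec3b and Scara5 had no entry. Only Fbln1 held an E-box, which 7.15% of all 32851 promoter windows and 9.35% of the windows of tested genes hold. It lies at position -81 from the start in one window, and at position -140 in a second window whose start is further along. Only Serpinf1 held the variant, at position -94, against 4.68% of all windows and 5.10% of those of tested genes. Serpinf1 also held AGGTCA on each strand. Of the 3 Gsn windows, 1 (chr2:35266494-35266793, plus strand) held TGACCT once, and the other Gsn windows held no match. AGGTCA was in 16.3% of all windows and 12.5% of those of tested genes. These shares count windows, and a gene can have more than 1. The Dpep1 window held none of these letters. A match describes letters only. The windows of Fbln1 (the largest fall of the 10), Serpinf1 (the one with the variant) and Dpep1 (the largest rise) are printed 5′ to 3′ on the strand of the gene, with matches in capitals.
Fbln1 (chr15:85205699-85205998, plus strand): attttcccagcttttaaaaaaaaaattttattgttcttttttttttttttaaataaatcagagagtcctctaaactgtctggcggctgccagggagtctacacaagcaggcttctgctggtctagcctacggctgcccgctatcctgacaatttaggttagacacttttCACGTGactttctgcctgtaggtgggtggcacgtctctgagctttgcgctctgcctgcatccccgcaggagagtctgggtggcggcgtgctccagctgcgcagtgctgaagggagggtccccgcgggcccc
Serpinf1 (chr11:75422574-75422873, minus strand): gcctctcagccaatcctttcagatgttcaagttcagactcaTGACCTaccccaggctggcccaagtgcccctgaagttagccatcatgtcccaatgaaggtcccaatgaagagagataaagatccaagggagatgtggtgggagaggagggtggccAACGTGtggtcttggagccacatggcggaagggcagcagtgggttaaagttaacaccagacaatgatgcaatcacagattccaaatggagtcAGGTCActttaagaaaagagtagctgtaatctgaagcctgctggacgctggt
Dpep1 (chr8:123185985-123186284, plus strand): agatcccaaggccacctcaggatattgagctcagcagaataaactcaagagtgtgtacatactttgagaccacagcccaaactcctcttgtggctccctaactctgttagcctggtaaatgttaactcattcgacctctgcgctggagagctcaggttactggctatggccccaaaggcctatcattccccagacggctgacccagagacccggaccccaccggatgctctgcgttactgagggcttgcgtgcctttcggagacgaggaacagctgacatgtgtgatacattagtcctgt

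A wider list of 40 fibroblast genes also went both ways. There, 23 of 39 tested genes rose and 14 fell, where 36.2% of all genes tested were higher and 34.9% lower. In this list 2 genes missed the threshold, and the median log2 difference was 0.55. WT libraries alone did not bring in Ebf2 or Pcolce2, so the filter favoured a rise in them. Igfbp6, which encodes a binding protein for insulin-like growth factors, rose 49.1-fold from 256 ± 33.2 to 12576 ± 991. The complement inhibitor gene Serping1 rose 6.82-fold and the globin gene Cygb 6.66-fold. Dcn, which encodes decorin, the partner of dermatopontin, fell 10.95-fold from 26319.5 ± 1947 to 2403 ± 77.2. Its relative Lum (lumican) fell 8.38-fold and the collagen gene Col14a1 3.32-fold, while Col15a1 rose 232-fold from 94.4 ± 36.7 to 21936 ± 290 and the microfibril gene Mfap5 rose 8.21-fold. The receptor gene Pdgfra, a general fibroblast marker, was at 10681 ± 916 and 12442 ± 547 (limma adjusted p = 0.0347). TMM scaling ended that call (adjusted p = 0.119), and so did edgeR (adjusted p = 0.0803). Without replicate 1, 2 or 3 under the Bmal1 KO label its limma adjusted p was 0.0797, 0.128 and 0.0637.

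Dpp4, Anxa3, Sema3c and Cd55 are markers of Pi16-positive fibroblasts in mouse tissues, and they went both ways. Dpp4, a surface peptidase gene, was at 20.2, 10.8 and 21.2 in WT and at 142, 53.9 and 75.4 in the libraries labelled Bmal1 KO, a 5.20-fold rise. Anxa3 rose 1.42-fold. Sema3c, which encodes a secreted guidance protein, fell 6.81-fold, and Cd55, a complement regulator gene, fell 1.33-fold. Thy1, a surface protein gene of many fibroblasts, rose 20.8-fold from 1169 ± 142 to 24359 ± 1555. Pdgfra, Lum, Col14a1, Col15a1, Mfap5, Dpp4, Anxa3, Sema3c, Cd55 and Thy1 were named after their values were seen.

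**Figure D4:**
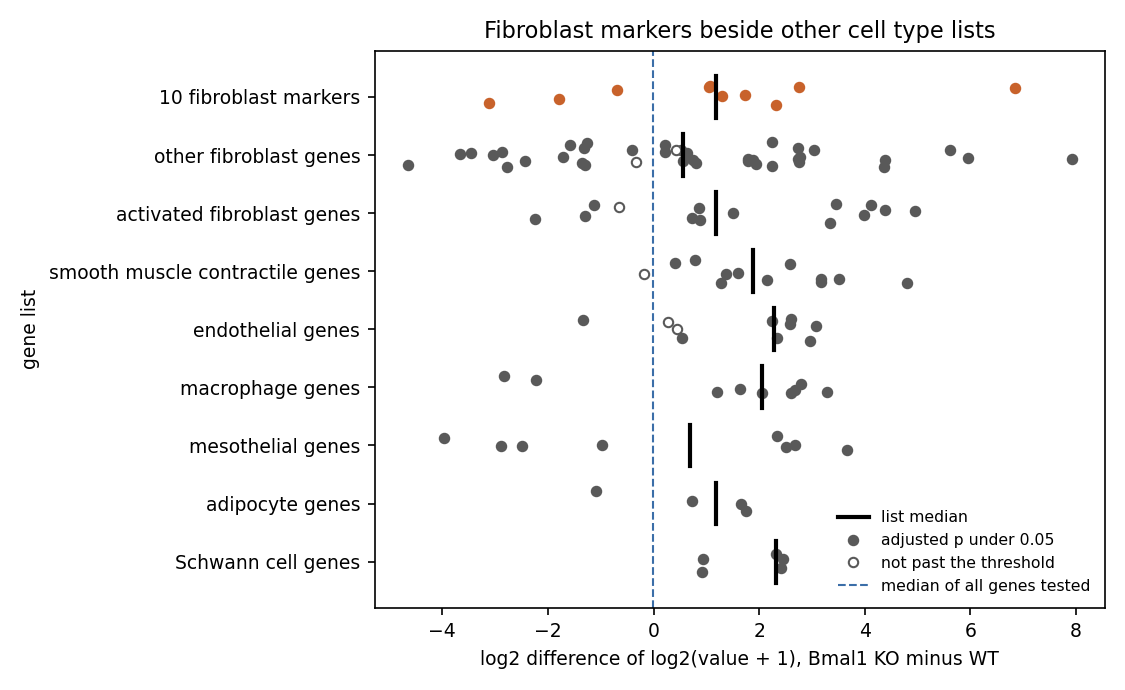
Log2 difference (Bmal1 KO minus WT) of each tested gene in 9 lists, filled where the adjusted p is under 0.05 and open where it is not, with list medians as black bars and the median of all genes tested as a dashed line. The 10 fibroblast markers and the wider fibroblast list spread on both sides of 0, while 11 of 12 smooth muscle contractile genes lie above it. Among the contractile genes, the filter favoured a rise in Myocd and Actg2.

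Among 14 genes of activated, matrix-building fibroblasts, 10 rose and 3 fell, where 36.2% of all genes tested were higher and 34.9% lower. In this list 1 gene missed the threshold, and the median log2 difference was 1.19. WT libraries alone did not bring in Comp, so the filter favoured its rise. Postn (periostin) rose 21.0-fold, Ccn2 15.9-fold, Col12a1 30.5-fold and the protease gene Adam12 17.3-fold. Thbs2, the most abundant of the 14 in WT, fell 4.76-fold, from 67758 ± 7785 to 14237 ± 69.6. Col5a3 fell 2.47-fold and Runx1 2.19-fold. Smooth muscle contractile genes moved up, 11 of 12 with 1 not passing, where 36.2% of all genes tested were higher. Their median log2 difference was 1.88. WT libraries alone did not bring Myocd or Actg2 past the filter of 10 in 3 libraries, which favours a rise in them. Among the contractile genes, Cnn1 (calponin) rose 4.47-fold, Tagln 5.98-fold, Acta2 3.04-fold and Lmod1 2.41-fold. The gene that did not pass, Synpo2, was at 56.6 ± 6.95 in WT and 49.6 ± 3.76 in the libraries labelled Bmal1 KO (limma adjusted p = 0.455).

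Markers of other cell types that a culture of the artery wall could hold also moved with the label. Cd34 marks endothelial cells too, and 7 of 10 endothelial genes rose, 1 fell and 2 did not pass. Of all genes tested, 36.2% were higher. WT libraries alone did not bring Emcn, Cldn5, Tek, Tie1 or Cdh5 past the filter of 10 in 3 libraries, which favours a rise in them. The summed level of the endothelial genes was 768 to 892 in WT and 1073 to 1404 under the Bmal1 KO label, while Cd34 fell. The most abundant of them, Egfl7, which encodes a secreted protein of endothelial cells, fell from 461, 403 and 387 in WT to 111, 199 and 198 (log2 difference -1.34, limma adjusted p = 0.00119). Without it the sum was 365 to 506 in WT and 932 to 1206 in the others. Pecam1 was at 14.1 to 58.0 in WT and 218 to 327 in the others, and Cdh5 at 4.15 to 30.4 and 52.7 to 112.

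For macrophage genes 7 of 9 tested rose and 2 fell, where 36.2% of all genes tested were higher and 34.9% lower. The same limit of the filter holds for Mrc1, Itgam, Adgre1 and Ptprc. The sum of the macrophage genes was lower under the Bmal1 KO label, at 2411 to 2910 against 3601 to 4169 in WT. That direction was set by 1 gene. Cd14, a receptor for bacterial lipopolysaccharide, fell from 2886 ± 307 to 404 ± 24.1, and without it the sum was higher, at 2022 to 2478 against 847 to 1109. The macrophage gene Cd68 fell too, 4.71-fold from 348 ± 54.3 to 74.0 ± 13.4 (limma adjusted p = 2.74e-05). Mesothelial genes were 4 higher and 4 lower of 8, with sums of 4035 to 5204 and 8209 to 12093. WT libraries alone did not bring Krt18 past the filter, and Bmal1 KO libraries alone did not bring in Wt1 or Lrrn4. The filter thus favoured a rise in Krt18 and a fall in Wt1 and Lrrn4. Without Msln, the most abundant over all libraries, the mesothelial sums overlapped, at 3654 to 4847 and 3758 to 7647. In WT, Krt19 was more abundant, at 2566 ± 591 against 356 ± 26.3 for Msln. Schwann cell genes were 5 higher of 5 tested, where 36.2% of all genes tested were higher. WT libraries alone did not bring in Sox10, so the filter favoured a rise in it. The Schwann cell sums were 1034 to 1530 and 2302 to 4000.5, and without Mbp 166 to 444 and 1008 to 1605.

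Adipocyte genes were 3 higher and 1 lower of 4 tested, where the filter favoured the rise of Cd36. Their sums were 2373 to 2998 and 5843 to 7343. Most of that sum was Fabp4, a fatty acid binding protein gene also expressed in endothelial cells and macrophages, at 1564 ± 342 and 5203 ± 809.5. Without Fabp4 the sums were 943 to 1088 and 1092 to 1206. The defining adipocyte genes Adipoq, Plin1 and Cidec were at or near 0, with 4 to 9 reads in the 3 libraries of a label, and Lep was listed at 0 in every library. Sums without the gene most abundant over all libraries were added after the data were seen, as were the names Adipoq, Plin1, Cidec and Lep. No other gene of these 5 lists was at 0 in all libraries of either label. The part of these cell types in the differences of the 10 genes was not tested.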

How the data were processed

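RNA was sequenced in 6 libraries of cultured mouse aortic smooth muscle cells, and the labels' protocols name a stranded Illumina mRNA kit. The submitters' processing notes list Trimmomatic, HISAT2, featureCounts and mm10. The annotation, the strand setting and the normalization tool were not given in the sources used here. The deposited table holds a non-negative signal per gene and library, normalized read counts. Dividing each library by its smallest value above 0 gave whole reads for 100% of values (tolerance 0.01). DESeq2 size factors recomputed from those reads equalled 1 over that value to 3 significant digits. They set the median gene ratio between libraries to 1, so every difference is relative to it.

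Genes were tested with limma (mean-variance trend, group as the only term) on log2(value + 1) where 3 or more libraries reached a value of 10. A gene low in 1 label could enter through the other label alone. In such genes the filter favours a difference toward the label that let them in, and counts of rises and falls in the lists include them. Benjamini-Hochberg adjustment ran over every gene tested, the threshold was 0.05, and an adjusted p is from limma unless another tool is named. The procedure was tested on simulated data. Depth (32503525 to 44657471 reads) leaves Pi16 and Clec3b with 22 to 74 reads per library, the least precise of the set. Replicates of a label were compared in pairs and differed by more than sampling noise. Alternatives were edgeR and DESeq2 on recovered reads, TMM and upper-quartile scaling, pseudocounts of 0.5 and 5, no filter and a filter of 50, the replicate number as a block, and each library left out. edgeR called 11479 genes. The software was limma 3.58.1, DESeq2 1.42.0 and edgeR 4.0.16 under R 4.3.3.

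The 10 genes and all lists were chosen with earlier results of these data known. Named genes were the 10 markers, up to 4 genes of each list with the smallest adjusted p, and tested family relatives. Others, among them Myh11, Cdh5, Sult5a1 and Chmp1a, were named after their values were seen, as was the choice of neighbouring genes, transcript length and promoter motifs. Gene positions and lengths are from GENCODE M21 (GRCm38, the same assembly as mm10), counted from 1. Promoter sequences are from RefSeq.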

Additional observations from a re-analysis of the deposited data

How the results depend on the processing

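Each of the 10 genes kept its direction under the 15 alternatives that could be run for it. Clec3b had 14, because the filter of 50 left it untested, which gave 9 members called under that filter. For 9 of the 10 genes every alternative run also kept the call. Pi16 alone lost it, under 5 alternatives, so 9 members were called with DESeq2 and without WT replicate 1 or 3 or Bmal1 KO replicate 1 or 2. Over all genes, 10083 to 12215 were called under the alternatives, against 11435 in the main test. Leaving out single libraries gave 10283 to 11692. Adding the replicate number as a block gave 11556 genes called and 10 of 10 members, and it changed no call of a member. Same-numbered libraries of the 2 labels had correlations of their deviations of -0.0045, 0.026 and 0.084. Not every library correlated best with its own number. No shared deviation was seen, which does not show whether same-numbered cultures were prepared together. Scaling moved the median of all genes by -0.061 (TMM) and 0.053 (upper quartile). The 3 relatives Dpep2, Efemp2 and Avil, none of which passed, changed sign. The log2 difference of Dpep2 was 0.185 without WT replicate 1, 0.0532 without WT replicate 2 and 0.0181 without Bmal1 KO replicate 1, and ran from -0.42 to 0.19 over single libraries left out. That of Efemp2 was 0.0235 under upper-quartile scaling and 0.00077 without WT replicate 1, in a range of -0.0807 to 0.00077. That of Avil was -0.00676 under TMM scaling, -0.0693 without WT replicate 3 and -0.0169 without Bmal1 KO replicate 1, in a range of -0.0693 to 0.166. The cause was not tested. Depth limits Pi16 and Clec3b most.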
